A study of Mus musculus with 14 samples.

Results

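The SLC3 and SLC7 amino acid transporter genes were examined in mouse kidney after ischemia-reperfusion (IR) injury, in which blood flow to the kidney is stopped and then restored. They comprised 10 genes, Slc3a1, Slc3a2, Slc7a1, Slc7a2, Slc7a5, Slc7a6, Slc7a7, Slc7a8, Slc7a9 and Slc7a11, chosen by symbol from the 23286 genes of the deposited tables. All 10 were found in both tables, and all 10 passed the low-value filter of a mean normalized value of at least 1. Bulk RNA-seq was made from whole kidneys of 9-week-old mice collected 5 h after surgery, as 4 groups of 3 libraries. Of these groups, 2 had the genotype named Control, after sham surgery or after IR, and 2 had the genotype that the submitters name VE-PTPiKO, after the same surgeries. VE-PTPiKO targets VE-PTP, an endothelial phosphatase that acts on the receptor Tie2 and is encoded by Ptprb. The sources used here give no strain for these mice and do not say how the deletion was driven or induced, which cells it reached, or what alleles the Control mice carried. A further 2 samples of the series, single-cell preparations of kidney at 24 h, were left out.

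Members of the SLC7 family carry amino acids across the plasma membrane. Most of those described here are light chains that reach the membrane only when joined by a disulfide bond to a heavy chain of the SLC3 family, either 4F2hc (Slc3a2, also called CD98) or rBAT (Slc3a1), while Slc7a1 and Slc7a2 are cationic amino acid transporters that work without a heavy chain. In the proximal tubule, rBAT with the light chain encoded by Slc7a9 takes up cystine and dibasic amino acids from the urine at the apical membrane, and loss of either gene causes cystinuria. On the basolateral side, 4F2hc with Slc7a7 or Slc7a8 passes dibasic and neutral amino acids on towards the blood.

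Promoter sequence from RefSeq (build GRCm38.p6) was matched for 8 of the 10 genes, with 15 start sites among them. The 250 bases before the start are shown for the 2 matched genes that rose after IR in Control kidneys, Slc7a11 and Slc7a1, and for Slc3a1, the gene with the highest level per exon length among the 10, which did not pass the test. Each is written 5′ to 3′ on the strand of its gene, and capitals mark matches to any of 4 motifs searched on both strands. The motifs were the C/EBP-ATF response element TGATGNAA, through which ATF4 acts in amino acid shortage, the antioxidant response element core TGACNNNGC, the AP-1 motif TGANTCA and the E-box CACGTG.
Slc7a11, chr3:50443614-50443863, minus strand: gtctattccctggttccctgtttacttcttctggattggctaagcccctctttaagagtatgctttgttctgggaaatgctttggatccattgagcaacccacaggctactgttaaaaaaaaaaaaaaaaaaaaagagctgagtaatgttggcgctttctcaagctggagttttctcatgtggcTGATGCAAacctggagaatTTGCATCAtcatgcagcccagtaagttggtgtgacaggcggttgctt
Slc7a1, chr5:148399905-148400154, minus strand: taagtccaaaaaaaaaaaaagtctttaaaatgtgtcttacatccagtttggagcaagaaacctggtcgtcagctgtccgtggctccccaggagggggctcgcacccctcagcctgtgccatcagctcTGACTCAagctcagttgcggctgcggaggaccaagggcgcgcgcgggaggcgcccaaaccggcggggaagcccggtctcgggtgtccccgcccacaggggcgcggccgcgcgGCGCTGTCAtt
Slc3a1, chr17:85028097-85028346, plus strand: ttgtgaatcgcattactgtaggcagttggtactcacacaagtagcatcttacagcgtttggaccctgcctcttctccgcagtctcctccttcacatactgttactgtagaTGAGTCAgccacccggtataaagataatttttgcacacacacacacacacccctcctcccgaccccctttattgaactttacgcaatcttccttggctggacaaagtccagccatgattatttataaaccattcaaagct
The Slc7a11 stretch held 2 C/EBP-ATF motifs on opposite strands, whose first bases lay at positions -66 and -47 counted from the start site. Among 32851 promoter stretches of the same length, 3.45% held at least 1 such motif and 13 (0.0396%) held at least 2. The Slc7a1 stretch held an AP-1 motif at position -123, a motif present in 6.75% of all stretches, and an antioxidant response core at position -11, present in 10.2%, while the other of its 2 start sites had none of the 4 motifs. The Slc3a1 stretch held an AP-1 motif at position -140. Among the other matched genes, Slc7a7 had a C/EBP-ATF motif before 2 of its 5 start sites and Slc7a6 an antioxidant response core before 1 of 2, while none of the 4 motifs was found in these windows of Slc3a2, Slc7a8 or Slc7a9. The only Slc3a2 start site, chr19:8713897, lay inside the gene, with 169 of the 250 window bases in annotated exons. For the second Slc7a1 start site all 250 were. The first bases after the start occurred in a known transcript of the gene for 10 of the 15 start sites. A match describes the letters only.

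Library depth ran from 15427887 to 21296392 assigned reads. Levels below are CPM, a gene's reads divided by all assigned reads of its library, on the field's usual scale. The labels do not state that libraries came from separate animals, so each p-value reflects the spread between libraries, which may be technical. Ptprb, the targeted gene, lay at 168 to 246 CPM in Control sham and 117 to 162 in VE-PTPiKO sham, without overlap, and at 112 to 158 and 75.0 to 126 CPM after IR, which overlapped (limma adjusted p = 1 for both genotype contrasts). These ranges show that transcripts of Ptprb remained in whole kidney of the VE-PTPiKO groups. Malat1, a nuclear RNA, took 1.96% of reads in VE-PTPiKO IR replicate 3, 1.15% in VE-PTPiKO sham replicate 2 and 1.02% in Control sham replicate 2, against 0.327% to 0.564% in the other libraries. Proximal tubule markers (16 genes such as Lrp2, Cubn and Slc34a1, none at 0 in any library) summed to 43010 to 52090 CPM over the 12 libraries.

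The apical heavy chain Slc3a1 had the highest level per length of the 10 genes, and its partner Slc7a9 ranked 4. Per kilobase of exon, Slc3a1 stood at 313 ± 7.40, 297 ± 22.0, 295 ± 23.1 and 297 ± 14.8 CPM per kb (SD, n = 3) in Control sham and IR and VE-PTPiKO sham and IR. The basolateral heavy chain Slc3a2 followed at 83.5 ± 7.41, 114 ± 15.1, 85.9 ± 9.75 and 108 ± 6.52 CPM per kb in the same order of groups. Next came Slc7a7 at 56.9, 73.5, 61.2 and 81.3 CPM per kb, then Slc7a9 at 40.3, 41.8, 39.0 and 41.0, and then Slc7a8 at 17.0, 25.5, 19.8 and 24.6. These 5 genes kept this order in all 4 groups, and the library ranges of neighbours in it did not overlap within any group.

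**Figure D1:**
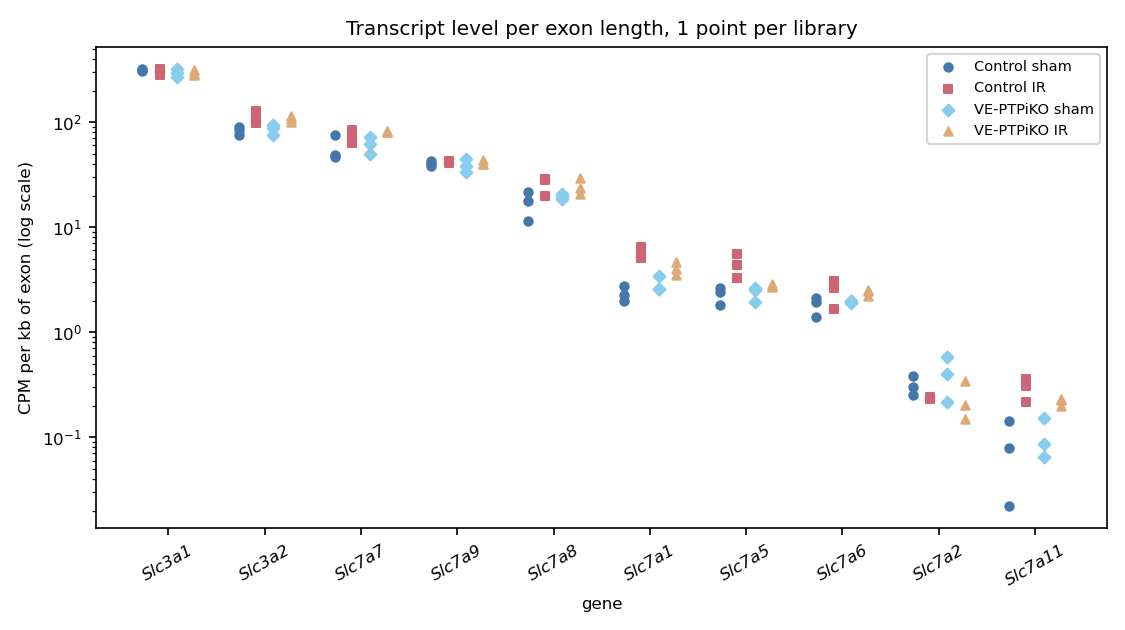
Level of each of the 10 genes in CPM per kilobase of exon on a log axis, with 1 point for each of the 12 libraries, coloured by group. Slc3a1 lies highest at group means of 295 to 313 CPM per kb and Slc7a11 or Slc7a2 lowest, at 0.0808 to 0.397.

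The remaining 5 genes were lower, at no more than 5.85 CPM per kb in any group mean. Slc7a1, Slc7a5 and Slc7a6 stood at 2.33, 2.30 and 1.83 CPM per kb in Control sham, and at 2.88, 2.36 and 1.94 in VE-PTPiKO sham, with each overlapping the next in both groups, while Slc7a1 and Slc7a6 did not overlap in VE-PTPiKO sham. In Control IR, Slc7a1 (5.85 CPM per kb) and Slc7a5 (4.42) still overlapped each other. Slc7a2, the second cationic transporter, and Slc7a11, the cystine-glutamate exchanger that feeds glutathione synthesis, were lowest, at 0.312 and 0.0808 CPM per kb in Control sham. Slc7a11 ranked above Slc7a2 only in Control IR (0.292 against 0.236 CPM per kb), where the library ranges of the pair overlapped, as they also did in VE-PTPiKO IR. With the longest coding transcript as the length in place of all exons, Slc3a2 and Slc7a7 overlapped in both sham groups, Slc7a1 and Slc7a5 lay apart in all 4 groups, Slc7a5 and Slc7a6 overlapped in all 4, with Slc7a6 ranked above Slc7a5 in VE-PTPiKO IR, and Slc7a11 also ranked above Slc7a2 in VE-PTPiKO IR.

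In Control kidneys, 3 of the 10 transporter genes rose 5 h after IR and none fell. Slc7a11 rose 4.17-fold, Slc7a1 2.47-fold and Slc7a5 1.86-fold, while the apical pair Slc3a1 and Slc7a9 had log2 fold changes of -0.11 and 0.02. Over all 16257 genes tested, 11.5% were called, 7.48% higher and 4.02% lower, by limma on log2(value + 1) with a Benjamini-Hochberg adjusted p under 0.05. The median log2 fold change of the 10 genes was 0.39, against -0.01 over all genes tested, and 8 of the 10 estimates were above 0. Because the genes were listed with earlier results of these data known, this is a description of them. Whole-kidney RNA cannot tell fewer cells of a type from less RNA per cell, nor more from more.

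Slc7a1 encodes CAT-1, which imports arginine, lysine and ornithine (mm10, chr5:148327410-148399904, minus strand). Its level was 26.1, 31.6 and 22.8 CPM in the 3 Control sham libraries and 58.1, 74.1 and 70.1 CPM in the 3 Control IR libraries. Every IR library was higher than every sham library. Averaged over replicates, Slc7a1 had 26.8 ± 4.46 CPM in sham and 67.5 ± 8.30 CPM after IR (SD, n = 3). The log2 fold change was 1.30 ± 0.14 (SE, 95% confidence interval 1.00 to 1.60; limma adjusted p = 0.000152), and it remained called under each of the 16 alternative settings run, with adjusted p from 1.49e-14 to 0.00192.

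Slc7a5 encodes LAT1, the 4F2hc light chain that exchanges large neutral amino acids such as leucine (chr8:121881146-121907686, minus strand). Its sham libraries had 9.75, 9.05 and 6.76 CPM and its IR libraries 12.2, 20.6 and 16.3 CPM. The groups did not overlap, and IR replicate 1 was the IR library nearest to sham. The sample code of that library lies apart from the codes of all the others, and the labels do not say what the codes mean. The log2 fold change was 0.89 ± 0.21 (SE, 95% confidence interval 0.44 to 1.35; limma adjusted p = 0.0179). This call was lost without Control sham replicate 3, IR replicate 2 or IR replicate 3, with limma adjusted p of 0.0718, 0.108 and 0.0514.

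Slc7a11 encodes xCT, the light chain of the cystine-glutamate exchanger (chr3:50364936-50443613, minus strand). Its 5, 40 and 19 reads in Control sham gave 0.308, 1.97 and 1.10 CPM, and its 51, 99 and 77 reads in Control IR gave 2.98, 4.96 and 4.24 CPM. All IR libraries were above all sham libraries, and sham replicate 1 was the lowest of the 6. The log2 fold change was 2.06 ± 0.52 (SE, 95% confidence interval 0.92 to 3.20; limma adjusted p = 0.0263). It was 1.37 without Control sham replicate 1 and 2.59 without Control sham replicate 2, and the call was lost without Control sham replicate 3, IR replicate 2 or IR replicate 3 (limma adjusted p = 0.0626, 0.117 and 0.0715). The authors' deposited table gives Slc7a11 a log2 fold change of 1.34 in Control, with an adjusted p of 8.4e-05. That value comes from their own DESeq2 fit and lies below the 1.37 to 2.59 of the 16 alternatives run here, DESeq2 among them. The deposited fold change may therefore be an unlike measure, and the reason was not tested.

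**Figure D2:**
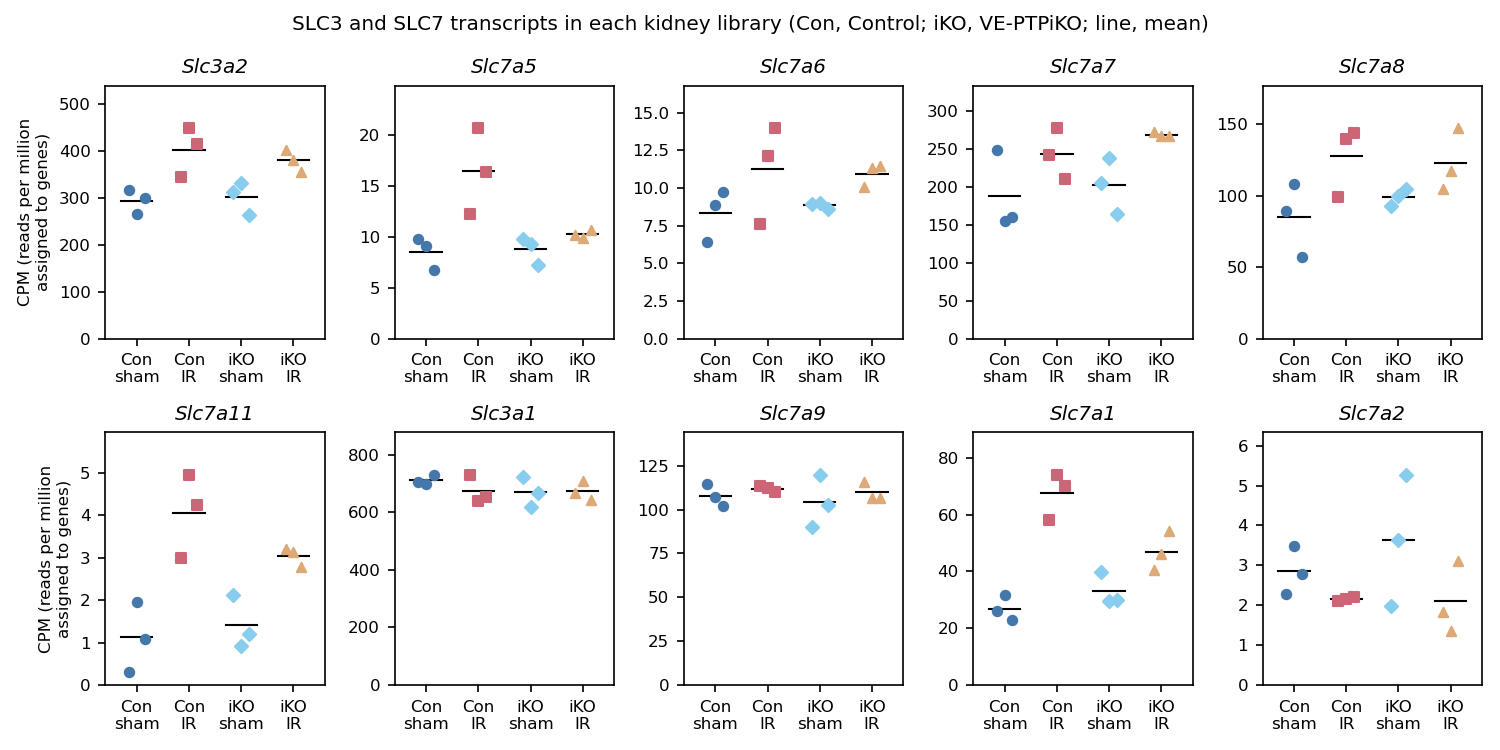
CPM of each gene in the 12 libraries, 1 panel per gene with an axis starting at 0; points are libraries and lines are group means (Con, Control; iKO, VE-PTPiKO). Slc7a1 shows Control IR libraries at 58.1 to 74.1 CPM above all others, while Slc3a1 stays between 618 and 731 CPM.

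The heavy chain Slc3a2 (chr19:8706882-8723369, minus strand) had 318, 266 and 301 CPM in its Control sham libraries and 345, 450 and 417 CPM in Control IR. The groups did not overlap, but the log2 fold change of 0.42 ± 0.12 (SE, 95% confidence interval 0.14 to 0.69) did not pass the test (limma adjusted p = 0.0538). DESeq2 called it (adjusted p = 0.0211), as did limma without Control IR replicate 1 (adjusted p = 0.0437). In the authors' deposited table, whose fold changes are those of their own DESeq2 fit, its log2 fold change was 0.41 with an adjusted p of 0.0036.

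Among the basolateral light chains, Slc7a8, which encodes LAT2 for neutral amino acids, was at 89.5, 108 and 56.8 CPM in Control sham and 98.9, 140 and 144 CPM in Control IR. The groups overlapped, because IR replicate 1 lay below sham replicate 2, and the log2 fold change was 0.59 ± 0.21 (limma adjusted p = 0.0992). It was called by DESeq2 (adjusted p = 0.0406) and by limma without Control sham replicate 2, a library high in Malat1 (adjusted p = 0.0335). Slc7a7, which encodes y+LAT1, the dibasic amino acid exchanger affected in lysinuric protein intolerance, was at 249, 156 and 161 CPM in Control sham and 242, 278 and 211 CPM in Control IR. Control sham replicate 1 lay within the IR range, and the log2 fold change was 0.36 ± 0.18 (limma adjusted p = 0.257) or 0.58 without that library (limma adjusted p = 0.0291). Slc7a6, the closely related y+LAT2, was at 6.42 to 9.76 and 7.61 to 14.0 CPM, with a log2 fold change of 0.37 ± 0.24 (limma adjusted p = 0.386).

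The apical pair and the second cationic transporter gave no call. Slc3a1 (chr17:85028347-85064241, plus strand) had 698 to 730 CPM in Control sham and 639 to 731 CPM in Control IR, a log2 fold change of -0.11 ± 0.12 (limma adjusted p = 0.638). Of its exon length, 26.5% overlaps Prepl on the opposite strand, which lay at 78.7 to 113 CPM in the 12 libraries. None of the sources used here says whether counting used strand, so reads over that stretch are uncertain. Slc7a7 and Slc7a2 each share 7.0% of their exon length with another gene, Oxa1l (66.0 to 91.9 CPM) and the noncoding Gm26584. Slc7a9 (chr7:35449098-35466034, plus strand) had 102 to 115 and 110 to 114 CPM, a log2 fold change of 0.02 ± 0.10 (limma adjusted p = 0.921). Slc7a2 was at 2.28, 3.49 and 2.77 CPM in sham and 2.11, 2.16 and 2.20 CPM after IR, so that every IR library was lower, with a log2 fold change of -0.40 ± 0.25 (limma adjusted p = 0.364). Counting groups without overlap, 4 of the 10 genes were higher and 1 was lower in Control IR, against 17.4% and 11.9% of all genes tested (29.3% in either direction).

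In VE-PTPiKO kidneys, none of the 10 genes passed the test after IR, against 2.71% of the 16401 genes tested (1.92% higher and 0.793% lower). Limma gave 3 of the 10 an unadjusted p under 0.05, and neither DESeq2 nor edgeR called any of them. Without VE-PTPiKO IR replicate 3, the library highest in Malat1, limma called 1925 genes in place of 445, and still none of the 10. Libraries did not overlap, with IR higher, for 7 of the 10 genes (Slc3a2, Slc7a1, Slc7a5, Slc7a6, Slc7a7, Slc7a8 and Slc7a11) against 12.7% of all genes tested higher and 20.2% in either direction. The median log2 fold change of the 10 was 0.25, against -0.01 over all genes, and 8 estimates were above 0.

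Slc7a1 stood at 39.8, 29.7 and 29.9 CPM in VE-PTPiKO sham and 40.6, 46.0 and 54.1 CPM in VE-PTPiKO IR, the lowest IR library lying just above the highest sham library. Its log2 fold change was 0.45 ± 0.16 (SE, 95% confidence interval 0.08 to 0.82; limma adjusted p = 0.227), and no alternative called it. Slc7a5 was at 9.77, 9.31 and 7.20 CPM in sham and 10.1, 9.91 and 10.7 CPM after IR, a log2 fold change of 0.18 ± 0.17 (limma adjusted p = 0.693). Both genes kept their groups apart by small margins only, less than 1 CPM between the nearest libraries.

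Slc7a11, with 45, 17 and 22 reads in VE-PTPiKO sham, was at 2.11, 0.910 and 1.21 CPM, and with 54, 51 and 43 reads in VE-PTPiKO IR at 3.20, 3.14 and 2.79 CPM. Its log2 fold change of 1.11 ± 0.34 (SE, 95% confidence interval 0.35 to 1.87) had the largest size among the 10 genes in this genotype and did not pass the test (limma adjusted p = 0.144). In the authors' deposited table the log2 fold change was 0.78 with an adjusted p of 0.0366, again below the 0.83 to 1.42 of the alternatives run here. Slc3a2 was at 313, 331 and 265 CPM in sham and 403, 382 and 357 CPM after IR, a log2 fold change of 0.28 ± 0.13 (limma adjusted p = 0.376). Slc7a7 was at 206, 238 and 165 CPM in sham and at 273, 268 and 267 CPM after IR, the IR libraries lying close together, a log2 fold change of 0.37 ± 0.14 (limma adjusted p = 0.252). Slc7a8 was at 92.55, 99.68 and 104.5 CPM in sham and 104.7, 117.5 and 147.3 CPM after IR, so its groups were barely apart. Slc7a8 and Slc7a6 had log2 fold changes of 0.25 ± 0.15 and 0.25 ± 0.16 (limma adjusted p = 0.491 and 0.533). For Slc7a9, Slc3a1 and Slc7a2 they were 0.03 ± 0.14, -0.04 ± 0.14 and -0.80 ± 0.42 (limma adjusted p = 0.951, 0.93 and 0.423), with overlapping libraries.

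**Figure D3:**
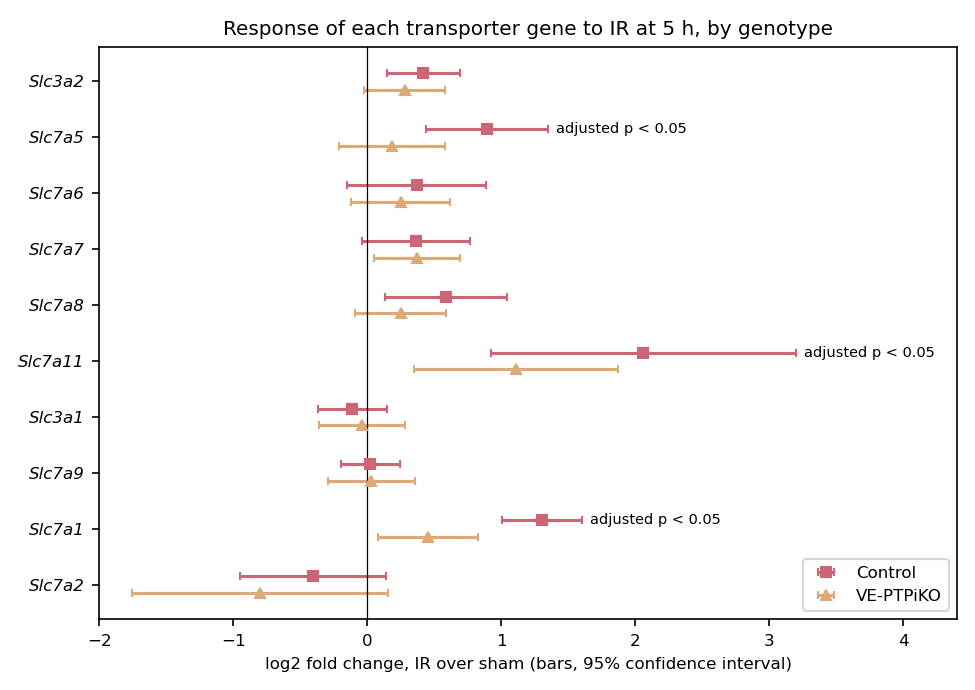
Log2 fold change of IR over sham for each gene, with squares for Control, triangles for VE-PTPiKO and bars for the 95% confidence interval. In Control, Slc7a1 (1.30), Slc7a5 (0.89) and Slc7a11 (2.06) passed the test, and in VE-PTPiKO the same genes had 0.45, 0.18 and 1.11 without passing it.

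The difference between the genotypes' responses to IR was itself tested in a fit of all 12 libraries normalized together. No gene passed among 16339 tested (0% called) by limma, DESeq2 or edgeR, although 432 genes and 2 of the 10 transporters, Slc7a1 and Slc7a5, had an unadjusted limma p under 0.05. For Slc7a1 the response in VE-PTPiKO minus that in Control was -0.85 ± 0.22 on the log2 scale (SE, 95% confidence interval -1.31 to -0.39; limma unadjusted p = 0.00162, adjusted p = 0.999). It was -1.14 without the 3 libraries highest in Malat1 (limma adjusted p = 0.0929), and over all settings the adjusted p ran from 0.0929 to 1. For Slc7a5 the difference was -0.71 ± 0.27 (SE, 95% confidence interval -1.30 to -0.12; limma unadjusted p = 0.0228, adjusted p = 0.999). Slc7a11 had -0.95 ± 0.70, which became -0.26 without Control sham replicate 1, -1.48 without Control sham replicate 2 and -1.68 without the 3 libraries highest in Malat1 (limma adjusted p = 0.274 to 1 over all settings). The other 7 genes lay between -0.39 and 0.07 (limma adjusted p = 0.999 for each). The 2 genes' lower responses are thus estimates that did not pass correction over all genes.

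After IR, Slc7a1 and Slc7a5 were the members whose libraries did not overlap between genotypes, both lower in VE-PTPiKO, against 3.68% of all genes tested that lay lower without overlap (4.83% higher, 8.51% in either direction). The 3 VE-PTPiKO IR libraries of Slc7a1, at 40.6 to 54.1 CPM, lay below the 3 Control IR libraries, at 58.1 to 74.1 CPM. The difference was -0.56 ± 0.15 on the log2 scale, 1.47-fold lower (limma unadjusted p = 0.00284, adjusted p = 1). Slc7a5 lay at 9.91 to 10.7 CPM in VE-PTPiKO IR and 12.2 to 20.6 in Control IR, a difference of -0.67 ± 0.19, 1.60-fold lower (limma unadjusted p = 0.00408, adjusted p = 1). Of 9 of the 10 genes the estimate was below 0, with a median of -0.09, and limma called no gene in the whole comparison (0% called, 709 at an unadjusted p under 0.05; DESeq2 called 1 and edgeR 0).

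In sham kidneys no member separated the genotypes, while 4.66% of all genes tested did (2.66% higher and 2% lower in VE-PTPiKO). Slc7a1 was at 22.8 to 31.6 CPM in Control sham and 29.7 to 39.8 CPM in VE-PTPiKO sham, a difference of 0.29 ± 0.15 on the log2 scale (limma adjusted p = 1). The difference for Slc7a11 was 0.54 ± 0.50 and became -0.15 without Control sham replicate 1, the library with 5 reads. Limma called no gene and no member in this contrast (0% called; 267 genes and 0 members at an unadjusted p under 0.05), DESeq2 called 1 gene and edgeR 0.

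The make-up of the 4F2hc light chain pool was computed as each gene's share of the summed CPM per kb of Slc7a5, Slc7a6, Slc7a7, Slc7a8 and Slc7a11. Slc7a7 made up 72.5% ± 7.24, 69.2% ± 5.54, 71.4% ± 4.13 and 73.1% ± 3.15 (SD, n = 3) in Control sham and IR and VE-PTPiKO sham and IR, and Slc7a8 21.9%, 24.0%, 23.5% and 22.1%. Slc7a5 made up 2.71% to 3.34% in Control sham and 3.37% to 4.63% in Control IR, the shares being higher after IR without overlap. In VE-PTPiKO the share of Slc7a5 was 2.61% to 3.09% in sham and 2.43% to 2.52% after IR, lower without overlap. The level of Slc7a5 was not lower there, at 7.20 to 9.77 CPM in sham and 9.91 to 10.7 CPM after IR. The summed light chains stood at 85.4 and 111 CPM per kb in the same 2 group means. Slc7a6 made up 2.16% to 2.49% and Slc7a11 0.113% to 0.273% in the group means. These are shares of transcript, not of protein, and no test was run on them.

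Relative to their heavy chains, the light chains had similar levels in the 4 group means. The summed light chains stood at 0.932, 0.932, 0.993 and 1.04 times Slc3a2 per kb in the 4 groups as ordered above. Slc7a9 stood at 0.129, 0.141, 0.134 and 0.138 times Slc3a1. Slc7a13, which also joins rBAT, stood at 1.12, 1.19, 1.14 and 1.17 times Slc3a1, with libraries from 0.71 to 1.52 in VE-PTPiKO IR. The balance of the heavy chains was less even. Slc3a1 was 3.45 to 4.07 times Slc3a2 in Control sham and 2.21 to 3.29 times in Control IR, lower after IR without overlap. In VE-PTPiKO the ratio was 2.896 to 3.924 in sham and 2.579 to 2.891 after IR, so that the groups all but met. Neither heavy chain passed the test after IR in either genotype, and no test was run on the ratios.

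Slc7a13, the other rBAT partner in the proximal tubule, had group means of 338 to 355 CPM per kb, and lay at 432 to 1020 CPM over the 12 libraries. Its log2 fold change after IR was -0.02 ± 0.14 in Control and -0.06 ± 0.32 in VE-PTPiKO (limma adjusted p = 0.962 for Control). Of the other 7 SLC7 genes in the tables, 5 were tested and none was called in either genotype, nor had any an unadjusted limma p under 0.05. Slc7a12 and Slc7a4 were at 0.410 to 7.51 and 4.55 to 6.27 CPM. Slc7a3, Slc7a10, Slc7a14 and Slc7a15 were at or below 0.33 CPM in every library.

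The likeness of other genes to each heavy chain was measured over the 12 libraries as the mean absolute difference in log2(CPM + 1) after centring each gene, among 10612 genes averaging 5 CPM or more. Among the genes nearest to Slc3a1 were Actr1b (0.0387), Rpn2 (0.0399), Nceh1 (0.0402) and Adipor2 (0.0416), on the log2 scale. Its partner Slc7a9 lay at a distance of 0.123, rank 2021, and Slc7a13 at rank 5423, while Slc7a4 lay nearer than both, at rank 1375. The 5 nearest to Slc3a2 were Med10 (0.0578), Rnf2 (0.0594), Arl14ep (0.0702), Rnf19a (0.0708) and Map2k1 (0.0727). Of the light chains known to join 4F2hc, Slc7a7 lay nearest to Slc3a2 at 0.153, rank 1136, followed by Slc7a6 at rank 2223. Slc7a5 lay at rank 3095 and Slc7a8 at rank 4122. Slc7a11, at a mean of 2.41 CPM, is not among the 10612 genes, and its distance would take rank 9160. Slc7a9, the partner of rBAT, lay at rank 2806, and Slc7a4 at rank 2928.

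Among 27 other amino acid transporter genes in Control kidneys, 2 rose and 3 fell after IR, with a median log2 fold change of -0.14. Over all genes tested, 7.48% were called higher and 4.02% lower in Control, and 1.92% and 0.793% in VE-PTPiKO. These shares stand beside the counts of this list and of each list below. Slc1a4, a neutral amino acid exchanger, rose 2.03-fold (limma adjusted p = 0.00105) and Slc38a2, which brings in small neutral amino acids with sodium, rose 1.70-fold (limma adjusted p = 0.0337). Slc6a6, the taurine transporter, fell 2.01-fold (limma adjusted p = 0.0012) and Slc38a3, a glutamine transporter of the tubule, fell 1.60-fold (limma adjusted p = 0.00473). The third that fell was Slc43a1, a large neutral amino acid transporter named after its values were seen (log2 fold change -1.31, limma adjusted p = 0.014). In VE-PTPiKO, 1 of the 27 was called, Slc38a3, which fell 2.17-fold (limma adjusted p = 0.0185), and Slc1a4 was 1.34-fold higher without passing the test (limma adjusted p = 0.218). The call of Slc38a2 in Control was lost without Control sham replicate 1 or 2 or Control IR replicate 2 or 3 (limma adjusted p = 0.0541 to 0.162), and that of Slc38a3 in VE-PTPiKO without VE-PTPiKO sham replicate 3 or IR replicate 1 (0.105 and 0.0804).

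Of 20 genes controlled by ATF4, the transcription factor induced by amino acid shortage and other stress, 8 rose and 2 fell in Control IR, with a median log2 fold change of 0.50. Atf3, a stress-induced transcription factor, rose 14.5-fold, Chac1, a glutathione-degrading enzyme, 11.8-fold, Ddit3, which encodes CHOP, 2.56-fold and Mthfd2, a mitochondrial folate enzyme, 2.54-fold (limma adjusted p at most 0.000557). The 2 that fell were Sesn2, a leucine sensor upstream of mTORC1 (2.34-fold, limma adjusted p = 0.000146), and Ddit4, a stress-induced inhibitor of mTORC1 named after its values were seen (log2 fold change -0.97, limma adjusted p = 0.00558). In VE-PTPiKO, 3 rose and 2 fell, with a median of 0.33. Atf3 rose 8.30-fold and Ddit3 2.84-fold. Atf4 itself rose 1.93-fold (limma adjusted p = 0.0159), and it had also risen in Control, 1.98-fold (limma adjusted p = 0.00123). Sesn2 fell 2.74-fold (limma adjusted p = 0.0144). The second that fell was Psat1, a serine synthesis enzyme named after its values were seen (log2 fold change -0.84, limma adjusted p = 0.0378). The calls of Atf4 and Sesn2 in VE-PTPiKO were each lost without sham replicate 2, sham replicate 3, IR replicate 1 or IR replicate 2 (limma adjusted p = 0.0638 to 0.101). No difference between the genotypes' responses passed the test for any of these genes.

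Among 14 genes of glutathione synthesis and cystine use, 2 rose and 2 fell in Control IR. Gclc, the catalytic subunit of glutamate-cysteine ligase, rose 1.51-fold (limma adjusted p = 0.0161), and Ctns, the lysosomal cystine exporter, fell by 0.88 on the log2 scale. Txnrd1, a thioredoxin reductase, rose by 0.61, and Cdo1, which oxidizes cysteine, fell by 0.61. The calls of Gclc, Txnrd1 and Cdo1 were lost without Control IR replicate 2, among other libraries (limma adjusted p = 0.0747, 0.132 and 0.0927). Of 15 tested genes of arginine and ornithine metabolism, 1 rose, Azin1, which relieves inhibition of ornithine decarboxylase (1.47-fold, limma adjusted p = 0.0064). Of 16 genes of amino acid sensing by mTORC1, 4 fell and none rose, namely Sesn2, the kinase Mtor (log2 fold change -0.85), Flcn (-0.70) and Depdc5 (-0.53), the last of which lost its call without any of Control sham replicates 2 and 3 or Control IR replicates 1, 2 and 3. The calls of Mtor and Azin1 were lost without Control IR replicate 2 (limma adjusted p = 0.0586 and 0.057). In VE-PTPiKO no gene of the glutathione or arginine lists was called by limma (4 and 3 at an unadjusted p under 0.05), and 1 of the mTORC1 list, Sesn2, fell.

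Markers of several other cell types had higher sums after IR, beside these transporters. Monocyte and macrophage markers (12 genes) summed to 153 to 181 CPM in Control sham and 234 to 245 in Control IR, and to 163 to 167 and 210 to 237 CPM in VE-PTPiKO. Of these 12, 3 rose in Control (Cd68, Lyz2 and Cd14) and 2 in VE-PTPiKO (Cd68 and Cd14), and none was at 0 in any library. The share of all genes tested that rose was 7.48% in Control and 1.92% in VE-PTPiKO. The call of Lyz2 was lost without Control IR replicate 2 (limma adjusted p = 0.0747), and that of Cd14 in VE-PTPiKO without any of the 3 sham libraries or IR replicates 1 and 2 (limma adjusted p = 0.0804 to 0.179). Neutrophil markers summed to 8.21 to 16.5 and 15.9 to 43.2 CPM in Control and to 11.3 to 14.0 and 14.4 to 26.7 in VE-PTPiKO, with Mpo and Elane at 0 in every Control sham library. Red blood cell genes summed to 80.0 to 94.2 and 144 to 217 CPM in Control, with 3 of 6 tested rising, and to 74.2 to 96.8 and 97.2 to 191 CPM in VE-PTPiKO, with 0 of 6 called by limma (3 at an unadjusted p under 0.05). Proximal tubule markers summed to 50230 to 52090 CPM in Control sham and 43010 to 48310 in Control IR, with 0 of 16 called by limma (2 at an unadjusted p under 0.05). In VE-PTPiKO they summed to 45770 to 48450 CPM in sham and 45660 to 48090 after IR, with 0 of 16 called by limma (3 at an unadjusted p under 0.05). The largest part of this sum was Kap, at a mean of 21660 CPM over the 12 libraries. Of the neutrophil markers 1 rose in Control, of 10 endothelial markers Cdh5 rose and Ptprb fell, and of 13 markers of other nephron segments Foxi1 fell. The call of Ptprb was lost when Control sham replicate 3 or either of Control IR replicates 1 and 2 was left out, and in a single model of the 12 libraries (limma adjusted p = 0.057, 0.0902, 0.121 and 0.0722), and that of Cdh5 without Control IR replicate 2 (limma adjusted p = 0.0534). T and B cell markers summed to at most 6.05 CPM with none called, and endothelial markers to 777 to 998 CPM. The part of these cells in the values of Slc7a1, Slc7a5, Slc7a11 and Slc3a2 was not tested.

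**Figure D4:**
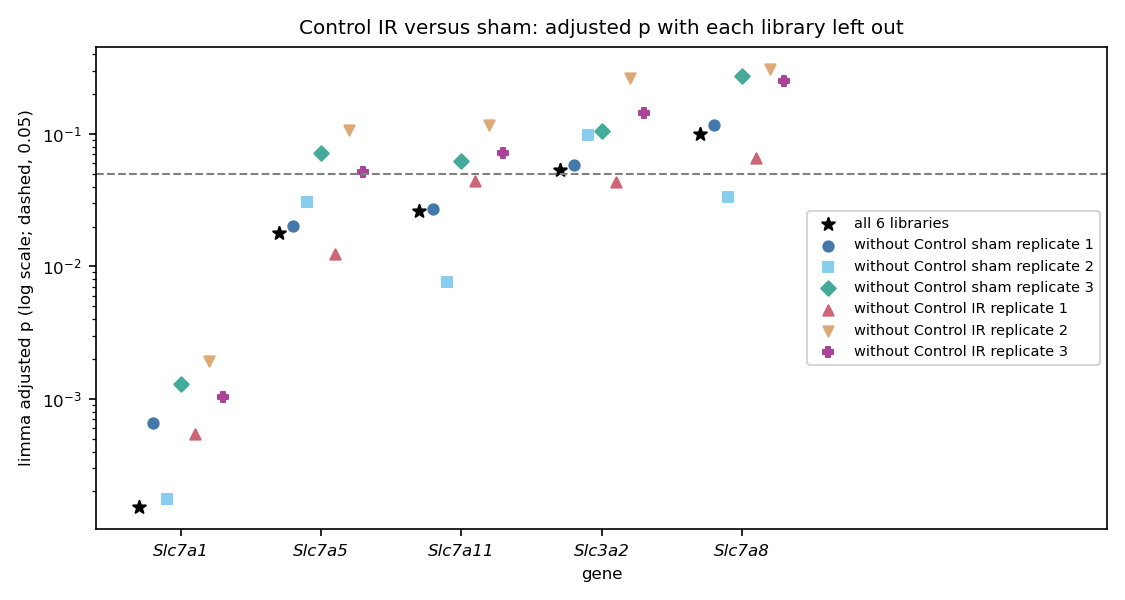
Limma adjusted p for Control IR versus sham on a log axis, with stars for all 6 libraries and other symbols for each library left out in turn; the dashed line is 0.05. Slc7a1 stays below the line in every case, at most at 0.00192, whereas Slc7a5 and Slc7a11 cross it for 3 libraries each.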

How the data were processed

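Whole-kidney RNA was extracted with Trizol and made into TruSeq libraries, per the labels' protocols. Per the submitters' processing notes, the authors used FastQC, STAR, HTSeq and DESeq2 with mm10 (versions not given). One table of 6 libraries was deposited for each genotype. The deposited library columns are normalized signal: as the values show, each is a column of gene counts over a size factor of that library, between 0.8863 and 1.2125. Multiplying back gave whole reads for 100% of values within 0.02. Each table had 23493 lines, with 182 gene identifiers repeated with identical values and 23286 kept. The authors' deposited log2 fold changes and adjusted p-values were read as their own statistics, per the file headers, and the deposited score, a Wald statistic, was not used.

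IR was compared with sham within each table by limma 3.58.1 (trended variance, log2(value + 1)) over genes whose mean reached 1. The difference of responses and both genotype contrasts were fitted to the 12 libraries' recovered reads after joint median-of-ratios normalization. P-values were adjusted by Benjamini-Hochberg over all genes tested. Counts of total reads set the precision, which for Slc7a11 and Slc7a2 rests on 5 to 99 reads per library. Fold changes are on the log2(value + 1) scale, which by itself shrinks changes of low genes. A low library can act the other way, and the Control estimate of Slc7a11 was smaller without sham replicate 1. The fits were checked on simulated counts, with 1 dispersion, set by hand, for every gene and group. In these, 200 genes were changed, all above a minimum mean level. Of 2-fold changes, 15% were recovered for the difference of responses and 42% to 46% in the other comparisons. Of 4-fold changes, 88% were recovered for the difference of responses and 99% to 100% in the others. Unchanged genes that were called numbered 2 to 12 per comparison. These shares hold for that setting only and may overstate recovery in the real libraries, whose spread differed between genes and groups. Even in the simulation, many 2-fold differences were missed. DESeq2 1.42.0, edgeR 4.0.16, TMM, other filters and pseudocounts (0.1 and 5), a replicate block, a single model of the 12 libraries, and omission of each library in turn or of the 3 highest in Malat1 were alternatives. Gene starts in the deposited tables count from 0 and were raised by 1. Exon lengths came from GENCODE M21. The members and lists were chosen with earlier results of these data known. Named genes were all 10 members, the other SLC7 genes, up to 4 called genes per list with a mean of at least 5 CPM and the 5 genes nearest to each heavy chain. A gene that this rule names is not reported here. Single-cell samples were not analysed.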

Additional observations from a re-analysis of the deposited data

How the results depend on the processing

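The call of Slc7a1 in Control held in all 16 alternatives, whereas those of Slc7a5 and Slc7a11 held in 13 each. The members called in Control numbered 5 by DESeq2 and 1 to 4 with 1 library left out, with 1 without Control sham replicate 3, IR replicate 2 or IR replicate 3. Over all genes, the 1870 calls in Control became 862 to 2010 with 1 library left out (862 without Control IR replicate 2). The 445 calls in VE-PTPiKO became 1008 by DESeq2, 1019 in a single model of the 12 libraries, 853 without the 3 libraries highest in Malat1, and 126 to 1925 with 1 library left out. The largest count, 1925, came without VE-PTPiKO IR replicate 3, the library highest in Malat1, and counts of 170, 126, 194 and 168 came without sham replicates 2 and 3 and IR replicates 1 and 2. No member was called in VE-PTPiKO under any setting. Counts for the difference of responses and for both genotype contrasts were 0 to 1 with 1 library left out, with the 1 coming without Control sham replicate 3 for the difference and the IR contrast and without VE-PTPiKO sham replicate 3 for the sham contrast. DESeq2 called 1 gene in each genotype contrast, and leaving out the 3 libraries highest in Malat1 called 1 in the sham contrast. The causes of these changes were not tested.

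The labels do not say whether the replicate numbers pair the libraries. Correlations of same-numbered deviations ran from -0.43 to 0.61, and some but not all libraries correlated best with their own number. With 3 libraries per group these values cannot decide whether the numbers mark pairs. With a replicate block, 1805 genes were called in Control and 604 in VE-PTPiKO, the same 3 members were called in Control and none elsewhere.

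Signs turned only for estimates that passed no test. Slc7a12 was 0.12 by DESeq2 and 0.13 by edgeR in Control. In VE-PTPiKO, Slc7a4 was 0.0065 with TMM, and Slc7a13 was 0.015 by DESeq2 and edgeR and 0.14 without the 3 libraries highest in Malat1. That omission also gave 0.067 for Slc3a2 in the difference of responses, -0.13 for Slc7a7 and -0.11 for Slc3a2 in the sham contrast, and 0.026 for Slc3a1 in the IR contrast. With 1 library left out, the log2 ranges were, in Control IR versus sham, -0.13 to 0.10 for Slc7a13, -0.0089 to 0.070 for Slc7a9 and -0.73 to 0.52 for Slc7a12. In VE-PTPiKO IR versus sham the ranges were -0.084 to 0.12 for Slc7a9, -0.12 to 0.016 for Slc3a1, -0.34 to 0.32 for Slc7a13, -0.057 to 0.036 for Slc7a4 and -0.76 to 0.63 for Slc7a12. In the difference of responses the ranges were -0.35 to 0.061 for Slc7a6, -0.21 to 0.14 for Slc7a7, -0.11 to 0.096 for Slc7a9 and -0.0035 to 0.15 for Slc3a1. In the sham genotype contrast the ranges were -0.081 to 0.23 for Slc7a6, -0.15 to 1.07 for Slc7a11, -0.021 to 0.33 for Slc7a7, -0.058 to 0.090 for Slc3a2, -0.11 to 0.14 for Slc7a5, -0.16 to 0.046 for Slc7a9 and -0.11 to 0.64 for Slc7a2. In the IR genotype contrast the ranges were -0.084 to 0.051 for Slc3a1, -0.26 to 0.13 for Slc7a6, -0.0013 to 0.22 for Slc7a7, -0.23 to 0.026 for Slc7a8 and -0.45 to 0.10 for Slc7a2. Where an arm was left with 2 libraries the spread was pooled by the fit. Depth limits Slc7a11 and Slc7a2 most.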
